A study of Peromyscus maniculatus with 16 samples.

Results

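The 9 genes described here carry glucose into and out of the hepatocyte, make or burn it, or store it as glycogen, and they were chosen by name: Pck1, Fbp1, Ppargc1a, Slc2a2, Gckr, Pklr, Gys2, Pygl and Irs2. All 9 were among the 16910 genes of the count table and among the 12639 genes with enough reads to be tested, and the lowest count of any of them in any animal was 38. The counts came from whole livers of 16 deer mice (Peromyscus maniculatus), outbred rodents bred in closed stocks, all 10 months old at the end. Group C was 6 males kept on chow. The other 10 animals ate a high fat diet (HFD) for 28 weeks from an age of 3 to 4 months and were divided by liver histology into NS, 5 males that showed no steatosis, and S, 5 animals that did. S held the only females, animals 35955, 35982 and 35990, beside the males 36016 and 10880, so in S sex and steatosis cannot be fully told apart. Each group had 1 animal of the stock labelled SM2 (10876 in C, 10865 in NS and 10880 in S), and the remaining 13 were of the stock labelled BW. No genotype or drug distinguished the groups, and the sources used here state neither the feeding state nor the hour at which livers were taken.

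Between meals the liver releases glucose. Phosphorylase, encoded by Pygl, breaks glycogen down, and phosphoenolpyruvate carboxykinase (Pck1) and fructose-1,6-bisphosphatase (Fbp1) carry out committed steps of gluconeogenesis, whose genes are induced by glucagon through the coactivator encoded by Ppargc1a. After a meal the flow turns round: glucose enters through the transporter GLUT2 (Slc2a2), is phosphorylated at a step that the Gckr protein restrains when glucose is low, is stored by glycogen synthase (Gys2) or is passed down glycolysis to liver pyruvate kinase (Pklr). Insulin restrains gluconeogenesis and favours glycogen storage, in part through the adaptor encoded by Irs2, while Pklr is also a classical target of the glucose sensor ChREBP, encoded by Mlxipl.

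Levels are given as TMM-normalized CPM, the share of all counts on a common scale, which can be compared between animals for a gene but not between genes, since no transcript lengths were used. Total counts lay between 4640733 and 11349971. Among the S livers, 2 stood apart in genes of other cell types, 36016 in single genes and 35990 in sums. Animal 36016 had a summed level of 2577 CPM over 12 stellate cell and fibroblast genes, against 287 to 759 CPM in the other 15 livers, but Col1a1 alone was 2058 CPM of it. Dcn, of the same list, was 135 CPM in 36016, below every chow liver (172 to 389 CPM). The skeletal muscle actin Acta1 was 118 CPM there, nearly all of a muscle sum of 119 CPM. Of the 7 muscle genes, 5 had at most 3 counts in every liver. Animal 35990 had the highest sums over 10 Kupffer cell and macrophage genes (1184 CPM) and over 7 bile duct genes (55.9 CPM), and the lowest over 9 hepatocyte genes (49067 CPM, against 54612 to 96004 CPM elsewhere). The livers are bulk tissue, so fewer cells of a type and less RNA per cell cannot be told apart.

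Pklr rose and Gys2 fell in S relative to C, so 2 of the 9 genes were called at an adjusted p below 0.1 and a change of at least 2-fold, where 4.06% of all tested genes were called (edgeR quasi-likelihood test, Benjamini-Hochberg adjustment over all genes). The 9 genes were chosen with earlier results of these data known, so their shares beside those of all genes are a description only. In the HFD livers as a whole against C, only Pklr of the 9 was called (background 0.894%). In NS against C none was called by edgeR (background 0.0712%), although 3 had an unadjusted p under 0.05, as did 8.29% of tested genes, and DESeq2 called 1, Pklr. None was called in S against NS by edgeR or DESeq2 (background 0.00791%), and 0 had an unadjusted p under 0.05, where 10.9% of tested genes did. The comparisons with C share the chow animals, and S against NS shares its animals with them, so the 4 are not independent of each other. The plot of CPM by group shows every animal.

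**Figure D1:**
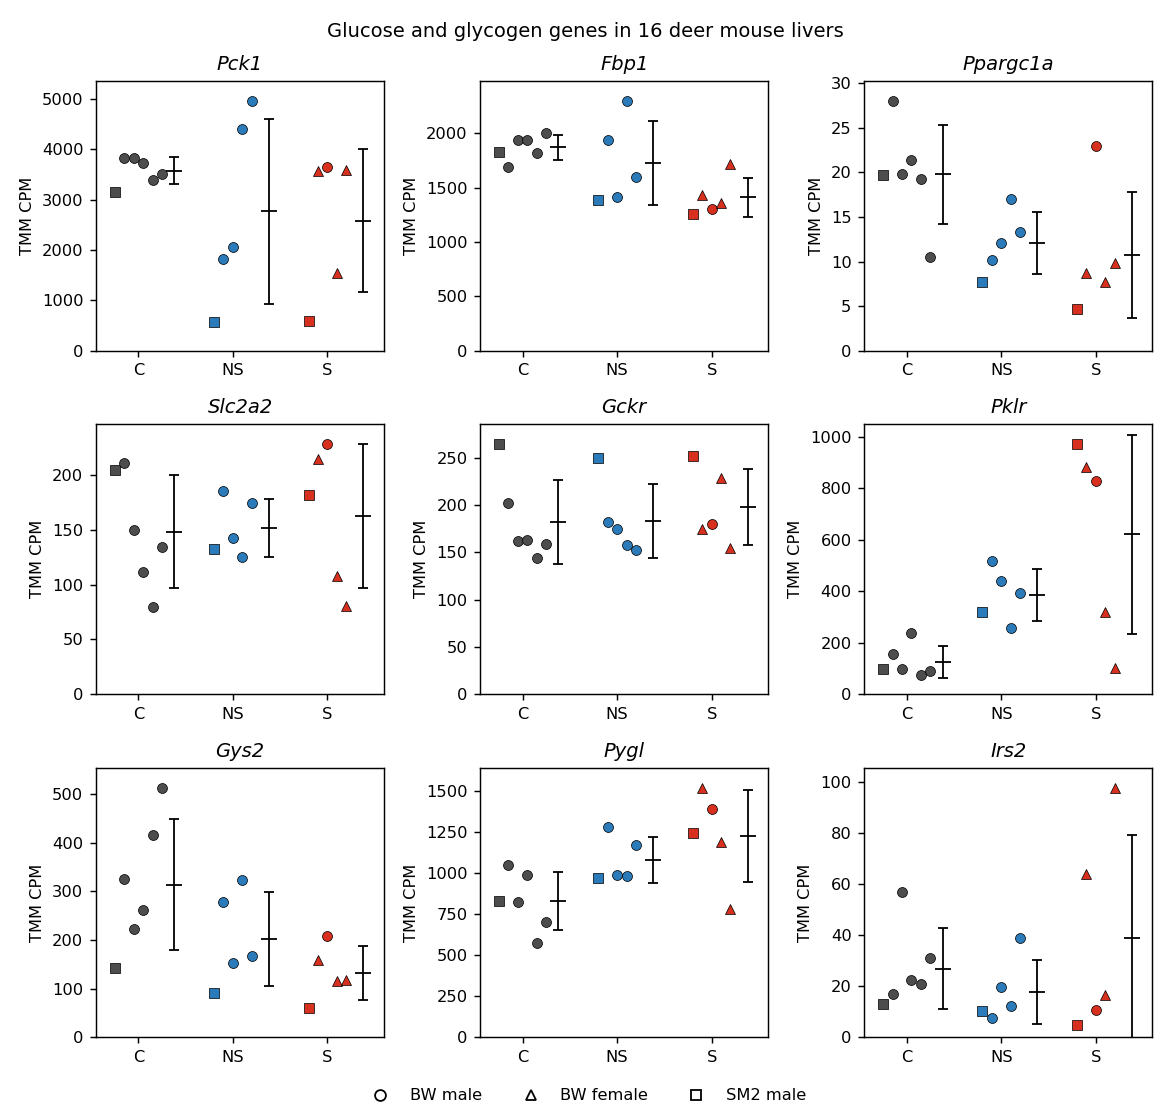
Level of each of the 9 genes in TMM-normalized CPM (vertical axes start at 0) in every liver of C, NS and S, with the mean and SD of the group to the right of its points and the symbol giving stock and sex. Pklr is above every chow animal in all 5 NS and 4 of 5 S livers, the mean of Gys2 is lowest in S, and Pck1 lies in a narrow band in C but spreads widely on HFD; the lower end of the Irs2 bar in S, below 0, is not drawn.

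Pklr encodes the pyruvate kinase of the hepatocyte, the last enzyme of glycolysis. In chow livers it was between 73.3 and 237 CPM with a median of 98.6 CPM. In NS it was 259 CPM in 35930, 321 CPM in 10865, 395 CPM in 35937, 440 CPM in 35987 and 517 CPM in 35963. In S it was 101 CPM in 35990, 320 CPM in 35955, 829 CPM in 36016, 884 CPM in 35982 and 972 CPM in 10880. Every NS liver thus lay above every chow liver, a separation seen in 0.989% of tested genes, whereas S held the 3 highest livers of the study together with 35990, which lay inside the chow range. Group means were 125 ± 61.3 CPM (SD, n = 6) in C, 386 ± 101 CPM (n = 5) in NS and 621 ± 386 CPM (n = 5) in S. Relative to C, Pklr was 4.96-fold higher in S, with a log2 fold change of 2.31 ± 0.44 (SE) and an adjusted p of 0.0163 by edgeR. Over all HFD livers the log2 fold change was 1.97 ± 0.40 (adjusted p = 0.0347), and that call was lost when chow animal 36007 was left out (adjusted p = 0.102). The NS livers gave 1.62 ± 0.44 on the same scale, with an adjusted p of 0.315 in spite of the lack of overlap. This p was 0.0846 without the S animal 35990, which enters the shared estimate of the spread, and 0.0322 in DESeq2. The direct test of S against NS gave a log2 fold change of 0.69 ± 0.45 (adjusted p = 0.584), so a further step from NS to S was not shown.

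The rise of Pklr in S was also seen within the BW stock and within males. Among BW animals alone its log2 fold change in S against C was 2.04 (adjusted p = 0.0415), and among males alone, with 2 S animals, it was 2.85 (adjusted p = 0.00436). Omitting any of the 16 animals left it called, at log2 fold changes of 2.09 to 2.59, and was 2.19 without 36016 and 2.58 without 35990. The 3 females themselves covered nearly the whole range of S.

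Neither gene of glucose entry passed the test. Slc2a2, the GLUT2 transporter that carries glucose both ways across the hepatocyte membrane, was at 148 ± 51.9 CPM in C (79.3 to 211 CPM), 152 ± 26.5 CPM in NS (125 to 185 CPM) and 163 ± 65.5 CPM in S (80.3 to 228 CPM). The S livers 35982 and 36016 lay above the highest chow liver and the other 3 within the chow range, and the log2 fold change of S against C was 0.13 ± 0.28 (adjusted p = 0.812). Within S, 35990 was the lowest and 36016 the highest, and without 36016 the value was -0.024.

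Gckr, which encodes a nuclear inhibitor of glucose phosphorylation, had nearly equal means of 183 ± 44.6 CPM in C, 184 ± 39.1 CPM in NS and 198 ± 40.5 CPM in S. Its log2 fold change was 0.12 ± 0.18 in S against C (adjusted p = 0.734) and 0.01 ± 0.18 in NS against C (adjusted p = 1). Its highest levels were those of the SM2 stock. The SM2 animals had 264 CPM in C, 250 CPM in NS and 252 CPM in S, above all 13 BW animals, which lay between 144 and 229 CPM. A gap of this kind between the 3 SM2 and the 13 BW livers, in either direction, was found in 6.81% of tested genes and in 1 of the 9 described here. It was noticed after the values were seen and carries no test.

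The gluconeogenic enzyme genes did not pass the test in any comparison, and Pck1 varied far more on HFD than on chow. Pck1 encodes the cytosolic enzyme that turns oxaloacetate into phosphoenolpyruvate. Its chow values were tight, from 3155 to 3835 CPM with a median of 3626 CPM and a coefficient of variation of 7.60%. In NS it was 582 CPM in 10865, 1831 CPM in 35963, 2069 CPM in 35987, 4399 CPM in 35930 and 4963 CPM in 35937. In S it was 591 CPM in 10880, 1549 CPM in 35955, 3563 CPM in 35982, 3584 CPM in 35990 and 3656 CPM in 36016. Of the 10 HFD livers, 5 lay below the lowest chow liver and 2, both NS, above the highest. The coefficient of variation was 66.6% in NS and 55.2% in S, and the spread itself was not tested. The lowest HFD values belonged to the SM2 animals, whereas the SM2 animal on chow had 3155 CPM. With SM2 left out, the 8 BW livers on HFD still ranged from 1549 to 4963 CPM. Differences of the means were small beside this spread: the log2 fold change was -0.47 ± 0.46 in S against C (adjusted p = 0.563) and -0.37 ± 0.46 in NS against C (adjusted p = 0.876).

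Fbp1, which encodes the phosphatase that removes a phosphate from fructose-1,6-bisphosphate, was between 1695 and 2001 CPM in C with a median of 1885 CPM. The S livers had 1262 CPM in 10880, 1301 CPM in 36016, 1355 CPM in 35955, 1432 CPM in 35982 and 1715 CPM in 35990. All S livers except 35990 lay below the lowest chow liver. The log2 fold change of S against C was -0.40 ± 0.15, with an adjusted p of 0.111, just short of the limit, and the change was well under 2-fold. Without 35990 the value was -0.48 (adjusted p = 0.0788), past the p limit but not 2-fold. NS was at 1725 ± 388 CPM (SD, n = 5), from 1384 to 2297 CPM, and gave -0.12 ± 0.15 against C (adjusted p = 0.876).

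Ppargc1a encodes PGC-1α, the coactivator through which fasting signals act on Pck1. In C it was between 10.5 and 28.0 CPM with a median of 19.7 CPM. In NS it was 7.69 CPM in 10865, 10.2 CPM in 35963, 12.0 CPM in 35987, 13.3 CPM in 35937 and 17.0 CPM in 35930. In S it was 4.63 CPM in 10880, 7.67 CPM in 35955, 8.71 CPM in 35982, 9.82 CPM in 35990 and 22.9 CPM in 36016. The S livers lay below the lowest chow liver except 36016, the liver with the high collagen and muscle actin counts, which lay above the chow median. With it, the log2 fold change of S against C was -0.89 ± 0.33 and missed the limit (adjusted p = 0.122). Without it the value was -1.36 (adjusted p = 0.0298), past both limits, and the comparison of all HFD livers with C moved from -0.80 (adjusted p = 0.153) to -1.04 (adjusted p = 0.0411). Among males alone, where 36016 is 1 of the 2 S animals, the S against C value was -0.54 (adjusted p = 0.539). Whether what raised Col1a1 and Acta1 in 36016 has a part in its Ppargc1a level was not tested.

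Of the 2 glycogen genes, Gys2 fell in S while Pygl was higher in S without reaching 2-fold. Gys2 encodes the liver form of glycogen synthase, which lengthens glycogen chains. It lay between 142 and 513 CPM in C with a median of 294 CPM. In NS it was 90.4 CPM in 10865, 152 CPM in 35987, 166 CPM in 35937, 278 CPM in 35963 and 323 CPM in 35930. In S it was 59.6 CPM in 10880, 116 CPM in 35955, 118 CPM in 35990, 158 CPM in 35982 and 209 CPM in 36016. In S, 3 of 5 livers lay below the lowest chow liver, which was the SM2 animal, and the SM2 animal was also the lowest in NS and in S. Gys2 was 2.38-fold lower in S than in C, with a log2 fold change of -1.25 ± 0.37 (adjusted p = 0.0646). The call was lost without chow animal 35975, 36001 or 36007 or without S animal 35955 (adjusted p up to 0.142), and among males alone (-1.22, adjusted p = 0.232), at much the same size. With stock as a covariate the value was -1.22 (adjusted p = 0.0128). NS lay between the other groups, at -0.63 ± 0.36 against C (adjusted p = 0.671).

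Pygl encodes the liver phosphorylase that releases glucose units from glycogen. It was between 576 and 1050 CPM in C with a median of 831 CPM. In NS it was 972 CPM in 10865, 986 CPM in 35930, 989 CPM in 35987, 1175 CPM in 35937 and 1284 CPM in 35963. In S it was 783 CPM in 35990, 1194 CPM in 35955, 1244 CPM in 10880, 1395 CPM in 36016 and 1523 CPM in 35982. As for Pklr, every S liver but 35990 was above the highest chow liver. The log2 fold change of S against C was 0.57 ± 0.18 with an adjusted p of 0.0800, so Pygl passed the p limit, as 10.8% of tested genes did, but at 1.48-fold did not reach 2-fold. The adjusted p was 0.0393 without 35990 and 0.151 without 36016.

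Irs2 encodes an adaptor of the insulin receptor and had the largest coefficient of variation of the 9 in S. In C it lay between 12.99 and 56.9 CPM with a median of 21.6 CPM, and in NS between 7.65 and 38.8 CPM. In S it was 4.75 CPM in 10880, 10.5 CPM in 36016, 16.5 CPM in 35955, 63.9 CPM in 35982 and 97.7 CPM in 35990. The 2 highest values of the study were thus 2 of the 3 females, and the 2 S males lay below every chow liver. The log2 fold change of S against C was 0.53 ± 0.62 (adjusted p = 0.635) over all animals and -1.83 among males alone (adjusted p = 0.142). S against NS gave 1.13 ± 0.66 (adjusted p = 0.539), and -1.23 among males alone. Without the liver 35990 the sign in S against C turned, to an Irs2 value of -0.17 (adjusted p = 0.897), and that of S against NS was 0.42 (adjusted p = 0.844). With no females in C or NS, the part of sex in these values cannot be fully told apart from that of group S.

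**Figure D2:**
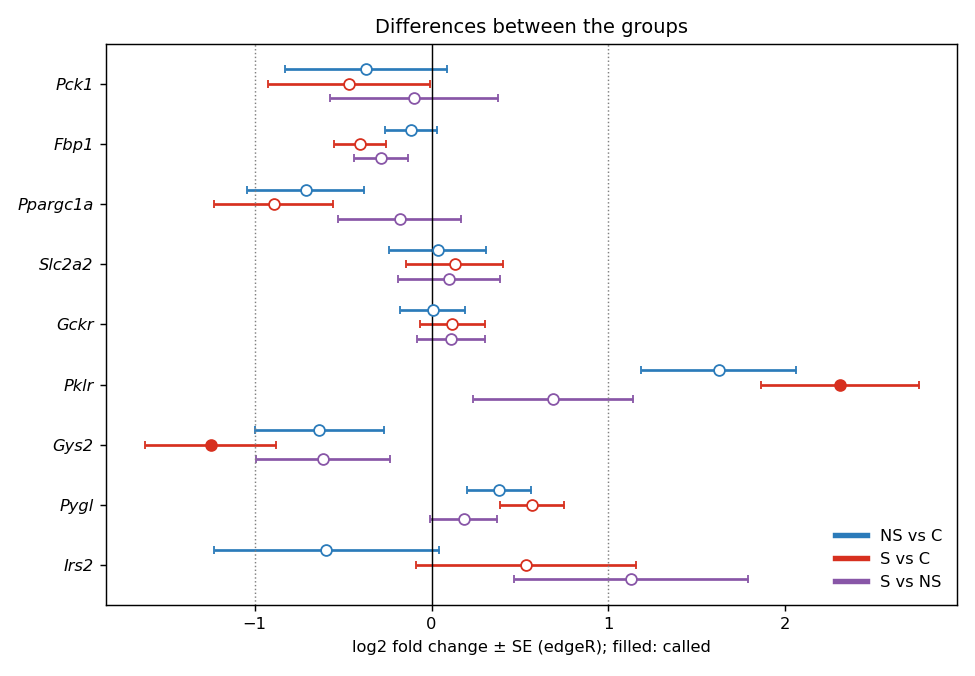
Log2 fold change (horizontal axis) with its standard error for each gene in NS against C, S against C and S against NS, from the edgeR fit over 16 animals; filled points passed both limits and dotted lines mark 2-fold. The filled points are Pklr at 2.31 and Gys2 at -1.25, both in S against C, and Slc2a2 and Gckr lie near 0 throughout.

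How the genes varied from liver to liver within their groups was examined on log2 CPM with the group means removed, over 36 pairs of genes and 16 animals. After Benjamini-Hochberg adjustment of permutation p-values over the 36 pairs, 4 pairs passed 0.05. The strongest was Pklr with Pygl, a glycolytic and a glycogen-breaking enzyme that were high and low in the same livers (Pearson r = 0.842, Spearman rho = 0.824, permutation p = 0.00025, adjusted p = 0.00702). It was 0.814 without the 2 animals farthest from the Pklr median and 0.890 among the 13 BW animals (adjusted p = 0.0202). Without 35990, low in both, r was 0.720 and the adjusted permutation p 0.0534. Pygl also varied with Slc2a2 (r = 0.803, rho = 0.712, permutation p = 0.00113, adjusted p = 0.0136), although r fell to 0.574 without the 2 animals farthest from the median and the adjusted p was 0.0506 in BW animals. Without 35990 this pair had r = 0.705 and an adjusted permutation p of 0.0773.

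Gckr took part in the other pairs, both inverse. Pck1 was low where Gckr was high (r = -0.735, rho = -0.706, permutation p = 0.00039, adjusted p = 0.00702). Gys2 was also low where Gckr was high (r = -0.705, rho = -0.547, permutation p = 0.00527, adjusted p = 0.0474; rho alone had an adjusted p of 0.207). Both involve the SM2 animals, which in each group had the highest Gckr and the lowest Pck1 and Gys2. Among BW animals r was -0.635 for Pck1 with Gckr (adjusted permutation p = 0.332) and -0.144 for Gys2 with Gckr (adjusted permutation p = 0.843). Without the 2 animals farthest from the Pck1 median, r was -0.549 for Pck1 with Gckr. Without the 2 farthest from the Gckr median, it was -0.475 for Gys2 with Gckr. Pck1 with Ppargc1a, its coactivator, gave r = 0.688 (permutation p = 0.0072, adjusted p = 0.0518) and rho = 0.779 (adjusted p = 0.0292), with r = 0.490 without the 2 farthest animals and 0.463 in BW. Without 36016 it passed (r = 0.722, adjusted permutation p = 0.0116), as did Gckr with Irs2 (r = -0.707, adjusted permutation p = 0.0437). Without 35990 the pair Gys2 with Gckr had r = -0.760 but an adjusted permutation p of 0.0517. The plot of all r values shows a block of Slc2a2, Pklr and Pygl and a block of Pck1 with Ppargc1a, Gys2 and Irs2.

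**Figure D3:**
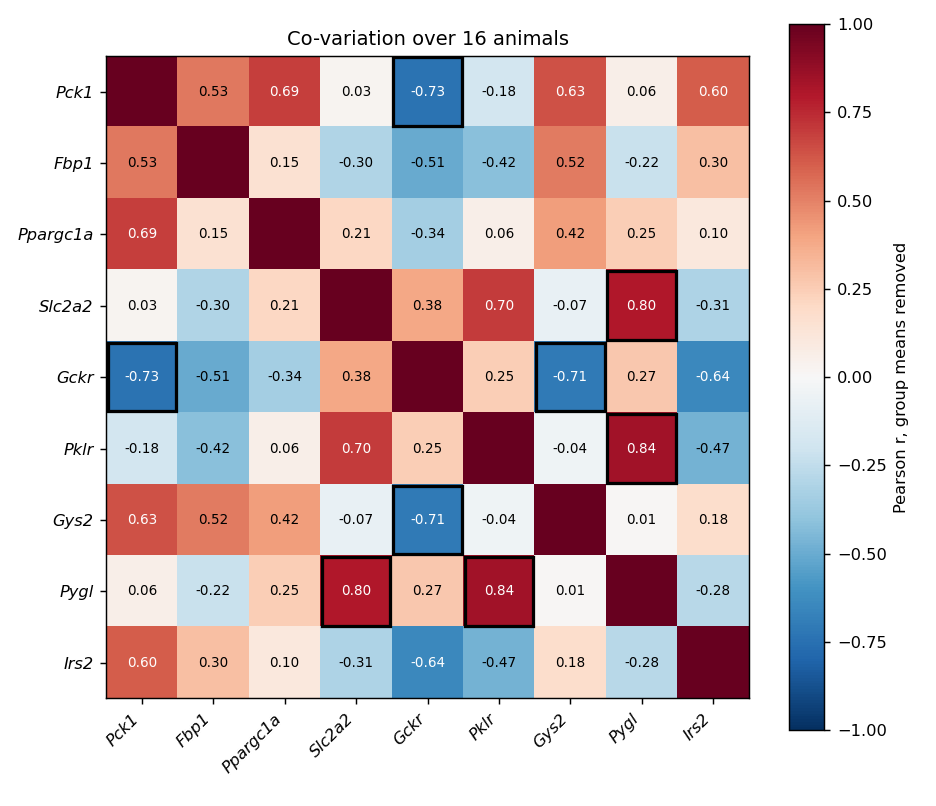
Pearson r between each pair of the 9 genes over 16 animals, on log2 CPM with group means removed (colour scale from -1 to 1), with black frames around pairs that passed an adjusted permutation p of 0.05. The framed pairs are Pklr with Pygl, Slc2a2 with Pygl, and Gckr with Pck1 and with Gys2.

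**Figure D4:**
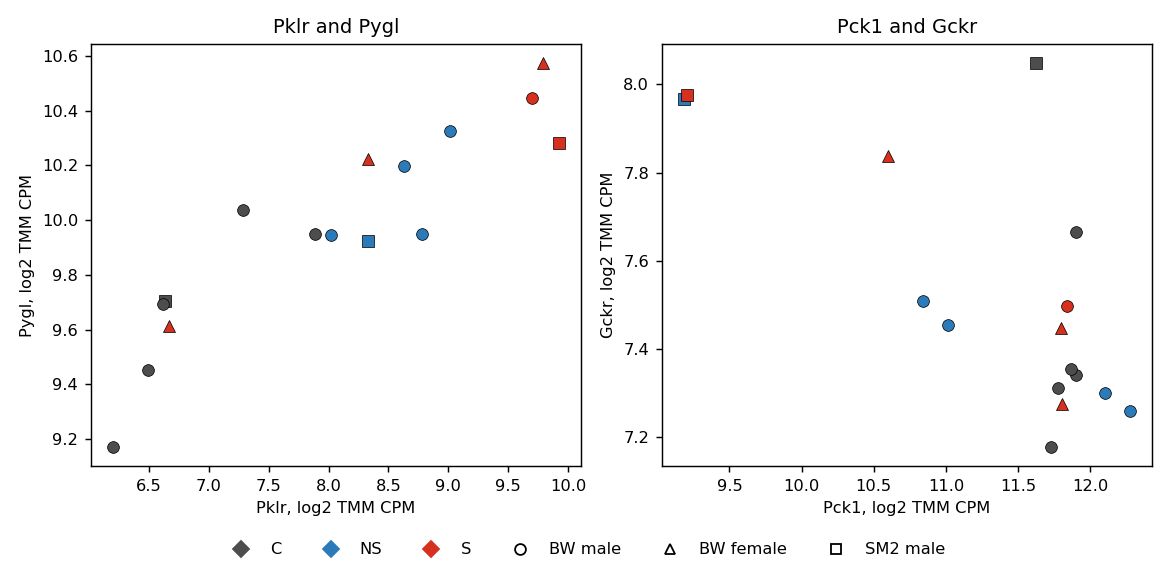
Log2 TMM-normalized CPM of Pygl against Pklr (left) and of Gckr against Pck1 (right) in each of 16 livers, coloured by group, with symbols for stock and sex. On the left the livers form a rising band with the S female 35990 among the chow animals; on the right the 3 SM2 squares lie at the top and the lowest Pck1 values are SM2 animals on HFD.

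Each gene was also compared with 8174 other genes of at least 5 CPM on average, the 9 themselves left out. This used Pearson r of log2 CPM over the 16 animals with group differences left in, as a description. On the same scale Pklr and Pygl had r = 0.910 with each other, higher than Pygl had with any of the 8174. Pklr was most like Elovl2 (r = 0.944) and Elovl6 (r = 0.935), fatty acid elongases, and Pygl was most like Abca9 (r = 0.886), an ABC transporter, and Acaca (r = 0.883), the acetyl-CoA carboxylase that commits carbon to fatty acid synthesis. Elovl6 was itself higher in S than in C (log2 fold change 2.16, adjusted p = 0.0287), as was Acaca (1.63, adjusted p = 0.0564). Pck1 was most like Parg (r = 0.928) and Tinagl1 (r = 0.927), Fbp1 like Uqcc2 (r = 0.922) and Rpl24 (r = 0.909), Gys2 like Elmod2 (r = 0.910) and Clmn (r = 0.908), and Gckr like Tmprss6 (r = 0.904) and B4galnt1 (r = 0.858). Slc2a2 was most like Atrn (r = 0.891) and Hlcs (r = 0.890), Ppargc1a like Ube2w (r = 0.853) and Fbxo30 (r = 0.813), and Irs2 like Sesn2 (r = 0.864) and Cebpd (r = 0.824). All these values share the same 16 libraries.

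The wider pathways were 117 tested genes in 7 lists with the 9 genes included, also chosen with earlier results of these data known. In S against C the median log2 fold change over them was 0.10, equal to that over all tested genes, and 6 were called, 5 higher and 1 lower, which is 5.13% of the 117 against the 4.06% of all genes. The 5 higher were Pklr, Pkm, Dlat, Pck2 and Pygb, and the lower was Gys2. In NS against C and in S against NS 0 of the 117 were called by edgeR, with 14 (12.0%, against 8.29% of all genes) and 12 (10.3%, against 10.9%) at an unadjusted p under 0.05, and in HFD against C Pklr alone was called. By list, the median in S against C was -0.21 over 14 gluconeogenesis genes, 0.34 over 10 genes of glucose entry and phosphorylation, 0.08 over 20 of glycolysis, -0.03 over 13 of pyruvate entry into mitochondria, 0.11 over 26 of glycogen, 0.17 over 27 of insulin and glucagon signalling and 0.09 over 8 of fructose and sorbitol. No member of the signalling list, of glucose entry or of fructose and sorbitol was called in S against C. A median of signed changes lets rises and falls offset each other. Groups did not overlap for 5 of the 117 in S against C, 5 in NS against C, 1 in S against NS and 2 in HFD against C. Over all tested genes the shares were 4.19% in S against C, 0.989% in NS against C and 0.348% in HFD against C.

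**Figure D5:**
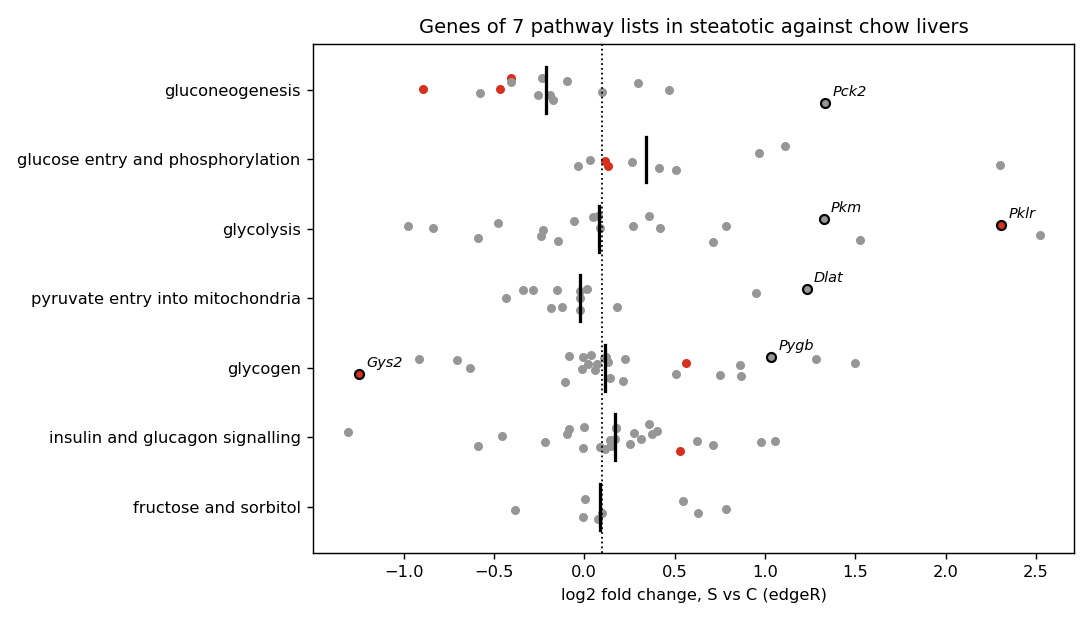
Log2 fold change of S against C (horizontal axis) for each tested gene of 7 pathway lists, with the 9 described genes in red, called genes outlined and named, list medians as bars and the median of all tested genes (0.10) as a dotted line. The medians lie from -0.21 to 0.34 and single genes, not lists, reach the outer values.

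Dlat, a subunit of the pyruvate dehydrogenase complex that takes pyruvate on to acetyl-CoA, was higher in S, at 68.4 ± 30.2 CPM against 29.1 ± 5.58 CPM in C (log2 fold change 1.23 ± 0.23, adjusted p = 0.0159). It was 34.2 CPM in 35990, 56.2 CPM in 35955, 59.5 CPM in 36016, 77.1 CPM in 10880 and 115 CPM in 35982, with 35990 again the lowest and within the chow range of 22.8 to 38.0 CPM. Without 35982 the value was 0.96, under 2-fold (adjusted p = 0.0370). Pck2, the mitochondrial isozyme of Pck1, was at 9.35 ± 3.24 CPM in S and 3.73 ± 1.31 CPM in C (log2 fold change 1.33 ± 0.37, adjusted p = 0.0557), and was not called among males alone (1.00, adjusted p = 0.275). Without chow animal 36001 or 36007 its adjusted p was 0.102 or 0.115.

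Pygb, the brain form of phosphorylase, lay between 9.45 and 13.4 CPM in S, above every chow liver (4.05 to 7.77 CPM), a separation found in 4.19% of tested genes, with a log2 fold change of 1.03 ± 0.28 (adjusted p = 0.0480). It was not called among males alone (1.09, adjusted p = 0.122), and it was just under 2-fold without 36016 (0.99), without 35990 (0.97) or without chow animal 35998, 35972 or 35975 (0.96 to 0.99). Pkm, the pyruvate kinase of non-hepatocytes and many other tissues, was called at 1.32 ± 0.44 (adjusted p = 0.0854), but only 36016 (90.8 CPM) and 35990 (50.3 CPM) stood above the chow range of 10.8 to 17.0 CPM. Those are the livers with the high Col1a1 level and the high macrophage sum, respectively. Without 36016 the Pkm log2 fold change was 0.64 (adjusted p = 0.301) and without 35990 it was 1.17 (adjusted p = 0.144). Leaving out any chow animal also ended the Pkm call. The part of other cell types in Pkm was not tested. Reads of the paralog pairs Pklr and Pkm, Pygl and Pygb, and Pck1 and Pck2 were counted where they mapped to a single place, and how far the pairs share sequence in this genome was not examined.

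Some pathway genes passed the p limit without reaching 2-fold. In S against C 13 of the 117, the 6 called genes among them, passed the p limit, which is 11.1% and close to the 10.8% of all tested genes. Tigar, which lowers fructose-2,6-bisphosphate, was 4.89 ± 1.03 CPM in S and 9.56 ± 0.900 CPM in C without overlap (log2 fold change -0.97 ± 0.19, adjusted p = 0.0163), and it had the smallest p of the lists in S against NS (-0.83 ± 0.19, adjusted p = 0.289), where Dlat followed (0.82 ± 0.24, adjusted p = 0.298). Mdh1, the cytosolic malate dehydrogenase, was 577 ± 84.4 CPM over the 10 HFD livers and 865 ± 103 CPM in C, again without overlap, as for 0.348% of tested genes (-0.58 ± 0.12, adjusted p = 0.0347). Mdh1 had the smallest p of the lists in NS against C (-0.59 ± 0.14, adjusted p = 0.223), before Pklr.

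A pair of direct partners of the 9 genes was looked up after their values were known. Mlxipl, which encodes ChREBP, had 93.5 ± 35.8 CPM in C, 270.3 ± 298 CPM in NS and 269.6 ± 256 CPM in S, with log2 fold changes of 1.53 ± 0.57 in S (adjusted p = 0.118) and 1.53 ± 0.57 in NS (adjusted p = 0.513). Single SM2 livers carried these means. Mlxipl was 795 CPM in 10865 and at most 228 CPM in the other NS livers, and 726 CPM in 10880 and at most 184 CPM in the other S livers. Without 10865 the NS mean was 139 ± 59.7 CPM (n = 4) and the log2 fold change 0.57 (adjusted p = 0.926), and without 10880 the S mean was 156 ± 29.6 CPM (n = 4) and the log2 fold change 0.73 (adjusted p = 0.376). The S against C value of Mlxipl was called when the NS animal 10865 was left out (1.53, adjusted p = 0.0540). G6pc, which encodes the last enzyme of glucose release, had 337 ± 139 CPM in C, 279 ± 236 CPM in NS and 295 ± 136 CPM in S (log2 fold change of S against C -0.19 ± 0.45, adjusted p = 0.83). The NS mean of G6pc was 178 ± 76.1 CPM (n = 4) without 35937, which had 684 CPM. With all 16 animals neither passed the limits in these comparisons.

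The study's coordination index, Pc, is Pearson's r between the correlations that a gene has with all other genes in a group and those it has in another group, and values under -0.2 mark genes whose correlations turned over. None of the 9 lay under -0.2 in any comparison on deposited counts, where 2.6% of genes did in S against C, 2.92% in NS against C and 3.53% in S against NS. In S against C the 9 values ran from -0.118 for Ppargc1a to 0.297 for Fbp1 with a median of 0.180, beside 0.201 over all genes. For NS against C they ran from -0.172 for Ppargc1a to 0.307 for Gys2 with a median of -0.022, beside 0.102, and 5 of the 9 were negative. In S against NS they ran from -0.196 for Pklr to 0.356 for Pck1 with a median of 0.187, beside 0.174. On CPM by total count the medians of the 9 were 0.169, 0.232 and 0.264, beside 0.105, 0.154 and 0.166 over all genes, so the order of the comparisons differed between the scales. The paper does not name its scale, but its average Pc was lowest in S against C and highest in S against NS, the order on CPM. Its gene numbers also equal those on CPM in S against C (13434) and NS against C (13340), though not in S against NS (13386 here). Under -0.2 the paper had more genes in each comparison than the 349, 389 and 472 found here on deposited counts. The lowest of the 9 on CPM was 0.038 in S against C, -0.019 in NS against C and 0.053 in S against NS. None lay under -0.2 there either, and the share of all genes on that scale is not given here. On CPM by total count 8 of the 9 were positive in NS against C, and Pklr in S against NS was 0.151 instead of -0.196, so the sign of a single Pc depended on the scale. The index has no test, and each group holds 5 or 6 animals.

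Feeding state and time of day act on nearly all of these genes. Of 14 genes of the fasting response 0 were called in any comparison by edgeR, with median log2 fold changes of -0.31 in S against C and -0.77 in NS against C, and their summed level was 7387 to 16017 CPM in C, 5623 to 11200 CPM in NS and 6626 to 10331 CPM in S. Of 17 clock genes 0 were called, with medians of 0.22 and 0.12, and the sums overlapped between the groups. The markers of hepatocytes, the cells in which these pathways chiefly run, were present, and the summed level of 9 of them was 65199 to 86958 CPM in C, 68640 to 96004 CPM in NS and 49067 to 71201 CPM in S. Their median log2 fold change in S against C was -0.48, and 2 of the 9 were above 0. The p limit was passed by 6 of the 9 at any fold, as by 10.8% of tested genes. Only Apoa2 was called in S against C (-1.02, adjusted p = 0.0325 by edgeR), and Apoa1 was called as higher in HFD against C (1.15, adjusted p = 0.0391). Stellate genes summed to 439 to 759 CPM in C and 364 to 2577 CPM in S. In S against C, Col1a1 of that list was called as higher (5.56, adjusted p = 0.0397) and Dcn as lower (-1.05, adjusted p = 0.0354). Acta1, of the muscle list, was also called as higher (5.69, adjusted p = 0.0452). For Col1a1 and Acta1 only 36016 was above the range of C. Kupffer genes summed to 326 to 656 CPM in C and 207 to 1184 CPM in S. The neutrophil and monocyte genes summed to 27.0 to 76.7 CPM in C, 10.4 to 56.5 CPM in NS and 4.796 to 24.9 CPM in S, with no overlap between C and S. Most of the sum in C was S100a8 (mean 15.8 CPM) and S100a9 (27.1 CPM). Both were lower in S (-1.98, adjusted p = 0.0452, and -1.77, adjusted p = 0.0497). Of the 5 tested genes of that list, 3 were higher in S, and the median log2 fold change was 0.26. The B cell gene Cd79b, of the lymphocyte list, was higher in S (1.83, adjusted p = 0.0554), at only 1 to 4 counts in C and 3 to 21 in S. The summed levels of endothelial (169 to 304 CPM in C, 168 to 331 CPM in S), bile duct (6.72 to 20.9 CPM, 7.04 to 55.9 CPM), lymphocyte (3.15 to 14.7 CPM, 5.44 to 17.6 CPM) and exocrine pancreas genes (2.44 to 6.30 CPM, 0.56 to 18.9 CPM) overlapped between C and S, and of 6 adipocyte genes 5 had at most 3 counts in every liver. The part of cell makeup, feeding state and time of day in the values of the 9 genes was not tested.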

How the data were processed

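Reads from 16 livers, paired-end, were aligned by the authors with STAR 2.7.2, and uniquely mapped reads were assigned to genes with featureCounts. The deposited values are raw counts. The strand setting and the conversion to symbols are not given in the sources used here, so overlapping genes and close paralogs are uncertain. Counts of any 2 animals of a group differed by more than sampling noise (lowest chi-square per degree of freedom 23.6).

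The filter kept genes reaching 0.5 CPM in 1 or more animals. These were tested with edgeR 4.0.16 (limma 3.58.1, R 4.3.3) by quasi-likelihood, with TMM and no covariate, in 1 fit of all animals. Calls required a Benjamini-Hochberg adjusted p under 0.1 together with a 2-fold change. The SE is the log2 fold change divided by the square root of F. Correlations used log2 CPM (prior count 2) and 100000 two-sided permutations within groups, in Python (3.11.15) using scipy (1.17.1), pandas (2.3.3), numpy (2.4.6) and, for figures, matplotlib (3.10.9). The tests were checked on simulated data.

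The 9 genes, the lists, the tests and the alternatives were chosen with earlier results of these data known. Besides the 9, the genes named are the called genes of the lists (or the 2 pathway genes with the smallest p where none was called) and the 2 most alike genes. The partners Mlxipl and G6pc were added after their values were seen. Tried in place of these were RLE factors, DESeq2 1.42.0, other filters, thresholds, scales and covariates, subsets of animals and single animals left out. Promoter sequences were not analysed here, and 1 further partner that was looked up is not reported here.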

Additional observations from a re-analysis of the deposited data

Results flagged for a closer look

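In S, Ppargc1a was 22.9 CPM in animal 36016 and 4.63 to 9.82 CPM in the other 4 animals, and the gap to the nearest of them was 0.716 of the whole range of the 5 animals. It was the only one of the 27 combinations of gene and group in which the highest or lowest animal stood this far from the rest. Chance gives such a gap in about 1 in 20 combinations, so 1 among 27 is no more than chance would give.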

How the results depend on the processing

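Over all alternatives, 36 log2 fold changes (9 genes in 4 comparisons) were recomputed 891 times: 836 kept direction and side of the limits, 7 lost the call, 7 gained it and 41 changed sign. The number of the 9 genes called in S against C (2) was 1 among males alone, with sex as a covariate and at an adjusted p under 0.05, and 1 to 3 with single animals left out, 1 being without 35975, 36001, 36007 or 35955 and 3 without 36016. For NS against C (0) it was 1 with DESeq2, among males alone and with only the compared groups fitted, and 0 to 1 with single animals left out. In HFD against C (1) it was 0 to 2, being 0 without 36007. In S against NS it was 0 throughout. HFD against C uses every group, so a fit of the compared groups alone is the same fit. Over all genes, the 513 called in S against C became 394 to 768, the 9 in NS against C 8 to 53, the 1 in S against NS 0 to 191 and the 113 in HFD against C 77 to 240 under the other settings. With single animals left out they were 192 to 573, 2 to 29, 1 to 15 and 36 to 234. In S against C the count was 192 without 36007, 219 without 35975, 245 without 36016 and 247 without 36001. In NS against C it was 2 without 35963 or 35987, 3 without 35937, 4 without 35972 and 29 without 35930. In S against NS it was 2 without 35955, 3 without 35990, 5 without 36016 and 15 without 10880. In HFD against C it was 36 without 36007, 52 without 35975, 53 without 35987, 55 without 36001, 61 without 10876, 72 without 35982, 73 without 35963 and 234 without 35930.

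The pairs that passed (4) were 11 with group means left in, 1 in BW animals, 0 in males, and 1 to 6 with single animals left out, 1 being without 35990. Genes with Pc below -0.2 (0) were 0 in S against C, and 0 to 2 in NS against C and in S against NS with single animals left out, 2 being without 35930, 35955 or 35990.

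Signs changed for small or sex-dependent values. With males alone and with sex as a covariate, Irs2 was -1.83 in S against C and -1.23 and -1.24 in S against NS, and Ppargc1a was 0.17 in S against NS. In NS against C, Gckr was -0.0073 in BW animals, -0.0037 with DESeq2, -0.0036 with RLE and -0.0082 with stock as a covariate, and Irs2 in HFD against C was 0.032 in BW animals. With single animals left out, the ranges that crossed 0 were, in S against C, -0.024 to 0.30 for Slc2a2 and -0.17 to 0.90 for Irs2. They were -0.13 to 0.14 for Gckr and -0.094 to 0.16 for Slc2a2 in NS against C. In S against NS they were -0.36 to 0.22 for Pck1, -0.63 to 0.024 for Ppargc1a and -0.048 to 0.27 for Slc2a2. In HFD against C they were -0.0060 to 0.20 for Gckr, -0.046 to 0.21 for Slc2a2 and -0.38 to 0.33 for Irs2. The causes were not tested. No paired analysis was made, since the groups are different animals and the labels name no pairs.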
